A study of Arabidopsis thaliana with 33 samples.

Results

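The 100 genes described here are those whose signal was highest in meristematic section 1, the first slice of the Arabidopsis meristem counted from the root tip, in each of 2 separate roots. They were selected on these measured values. In each root the highest log2 intensity of the other sections was subtracted from that of section 1, the smaller of the 2 root values was kept, and the 100 largest values were taken from 13513 probe sets that the array annotation assigns to a single gene (13355 genes). The array holds 22746 probe sets in all. Elongation section 2 was left out of this choice. The difference between section 1 and the other sections is therefore given below as a description and carries no test.

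The study mapped transcript levels across the Arabidopsis root with 33 arrays. Of these, 24 came from sections of 2 roots of 7-day seedlings, each root cut from the tip into meristematic sections 1 to 6, elongation sections 1 and 2 and maturation sections 1 to 4. One further array came from a columella section of the root tip, and 8 came from protoplasted cells sorted by a GFP reporter from seedling roots 5 to 6 days after germination. Those populations were COBL9 (hair cells), SUC2 (phloem companion cells), S32 (protophloem and metaphloem), S4 (protoxylem and metaxylem of the meristem), S17 (phloem pole pericycle), JO121 (xylem pole pericycle), J2501 (pericycle, xylem and phloem together) and RM1000 (lateral root primordia). All groups were grown on the same standard medium, no mutant or treatment was compared, and each section or population is 1 array. A root is the replicate (n = 2), and sections of 1 root come from 1 plant.

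The root tip holds the quiescent centre, a small group of slowly dividing cells, with stem cells around it that feed every tissue of the root. Below it lies the columella, whose starch-filled plastids sense gravity, and around the flanks lies the lateral root cap, whose outer cells die and are shed. A thin slice at the tip thus mixes stem cells, young root cap and the first cells of epidermis, cortex and stele. In bulk samples of this kind, fewer cells of a type and less RNA per cell cannot be told apart.

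Section 1 is labelled as holding the quiescent centre, and in root 1 the columella was cut off as a separate sample, so section 1 was not the outermost slice of root 1. No separate columella array was used for root 2. The 22 section arrays behind the choice had SDs of log2 intensity from 0.634, in section 1 of root 1, to 1.45, and section 1 of root 2 had 1.29. All array medians lay between 0.790 and 1.04. The columella array had an SD of only 0.137 and a Spearman correlation of 0.436 with section 1 of root 1 across 22746 probe sets, whereas section 1 of the 2 roots correlated at 0.819. Elongation section 2 of root 1 had an SD of 0.426, and one of its labels names root 2.

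The name "confined to the tip section" holds for some of these genes and not for others. Section 1 was the highest of 11 sections for 2224 single-gene probe sets in root 1, for 811 in root 2 and for 271 in both. Of the 100 members, 19 exceeded every other section by at least 2-fold in both roots and 38 by at least 1.5-fold. The median excess over the highest other section was 0.57 on the log2 scale in root 1 (0.18 to 2.80) and 0.74 in root 2 (0.18 to 4.81). The median member had a log2 intensity of 0.96 in section 1 of root 1, against 0.15 in section 2 and -0.38 to -0.11 in the later sections of the choice. In root 2 it had 1.14 in section 1, against -0.67 to -0.26 in the other sections. Outside sections 1 and 2 these medians were at or below the level of all single-gene probe sets or within 0.1 above it. The genes are called section 1 genes here.

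**Figure D1:**
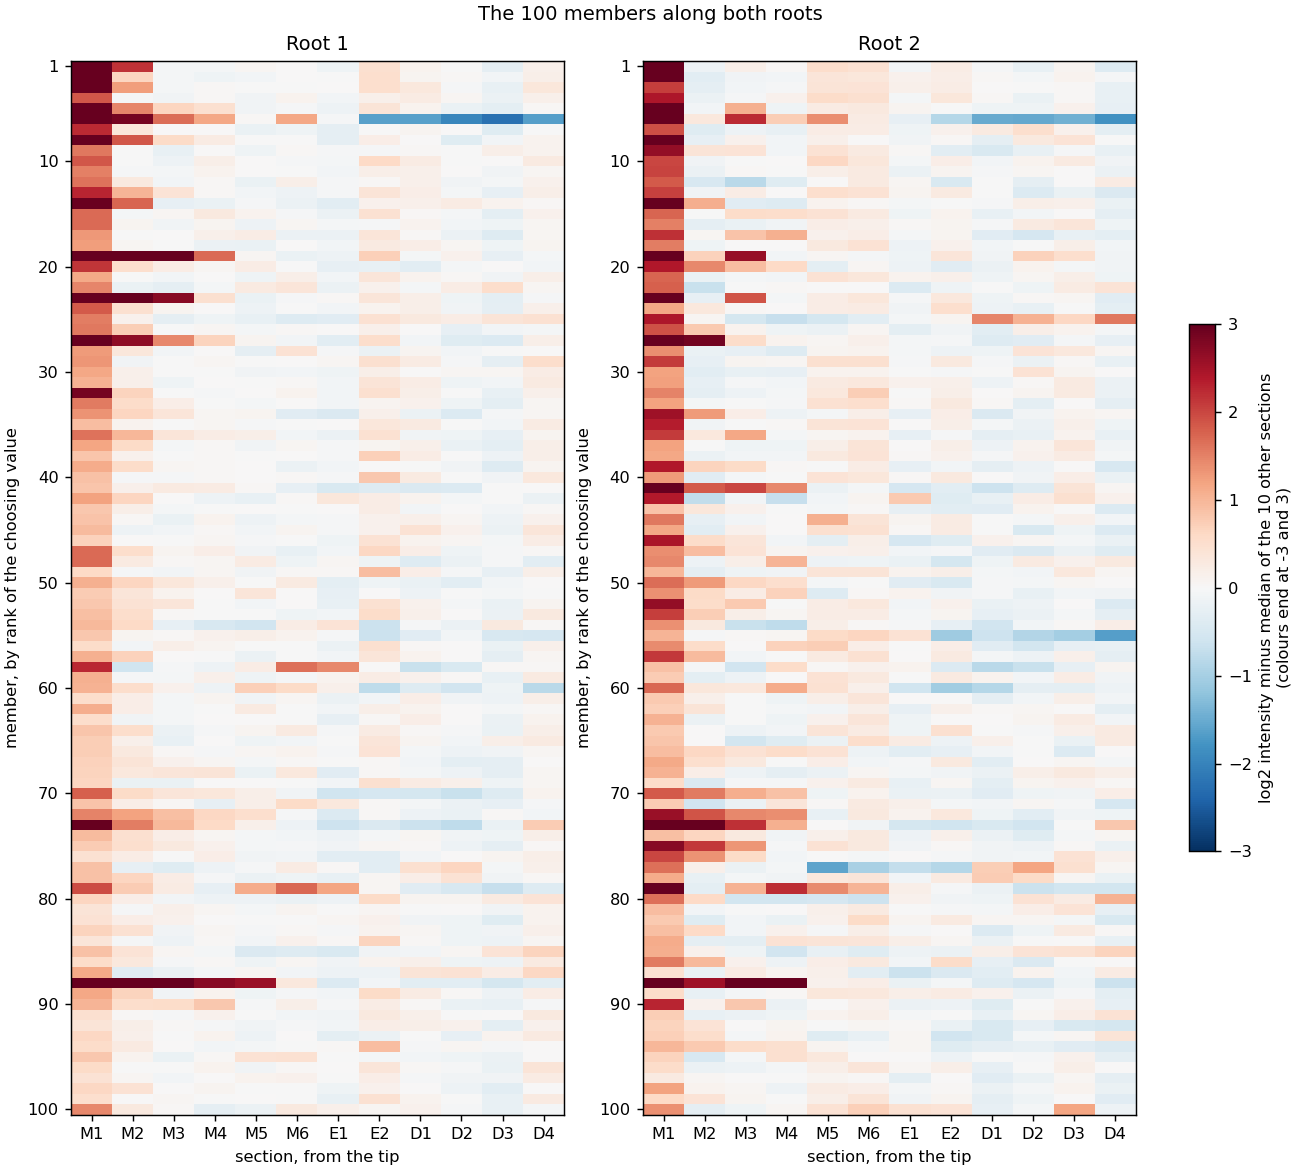
Each row is 1 of the 100 section 1 genes, ordered by the value that chose it, and each column is 1 section array of root 1 (left) or root 2 (right), with M for meristematic, E for elongation and D for maturation sections. Colour is log2 intensity minus the median of the 10 other sections of the same root, elongation section 2 left out of that median. The tip column is red throughout by selection, and section 2 lies above the mean of sections 3 to 6 for 77 members in root 1 (42.4% of all single-gene probe sets) and for 46 in root 2 (38.7%).

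The steepest member was AT1G50060. Its intensity was 21.9 in section 1 of root 1, against 3.15 in section 2 and 0.575 to 0.774 in the remaining sections. Elongation section 2, which the choice left out, is not among the other sections in these comparisons. In root 2 it was 21.96 in section 1, against 0.415 to 0.782 in all others. The section 1 levels of the 2 roots were nearly equal, and the excess over the highest other section was 2.80 on the log2 scale in root 1 and 4.81 in root 2.

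AT5G54370 had the brightest section 1 signal of the 12 steepest members, 58.6 in root 1 and 37.2 in root 2. It was not absent from the rest of the meristem. In root 1 sections 2 to 6 read 21.7, 9.49, 6.68, 3.04 and 6.72, and in root 2 they read 2.39, 9.03, 3.20, 5.00 and 2.27. In the maturation sections it lay between 0.547 and 0.961 in both roots, so its signal declined along the meristem and elongation zone and did not stop after section 1.

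AT4G26880 had 6.39 in section 1 of root 1 against at most 1.14 elsewhere, and 4.82 in root 2 against at most 0.714. AT1G23160 had 7.38 in section 1 of root 1 against at most 1.41, and 2.02 in root 2 against at most 0.639. AT3G61930 had 6.80 against at most 2.29 in root 1, and 12.2 against at most 1.35 in root 2. In all 3 the section 1 values of both roots lay above every other section of either root. AT4G27400 had 10.2 against at most 3.84 in root 1, and 13.1 against at most 1.08 in root 2. AT5G51470 had 3.49 against at most 0.945 in root 1, and 2.08 against at most 0.774 in root 2. For AT5G51470 section 1 of either root lay above all other sections, and for AT4G27400 section 2 of root 1 was the highest of the rest.

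The dimmer members of the leading group had a single step after section 1. AT3G10780 read 2.34 in root 1 and 2.62 in root 2, against at most 0.758 and 0.717 in the other sections of those roots. AT4G13210 read 2.29 and 2.83, against at most 0.898 and 0.836. For PPDK, pyruvate orthophosphate dikinase, which interconverts pyruvate and phosphoenolpyruvate, section 1 read 2.48 in root 1 against at most 0.936, and 5.78 in root 2 against at most 1.25.

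ATL63 belongs to a family of RING-type ubiquitin ligases. It read 2.90 in section 1 of root 1 against at most 0.966, and 2.58 in root 2 against at most 0.985. IQD22 belongs to a plant family of calmodulin-binding proteins. It read 2.90 against at most 1.15 in root 1, and 4.53 against at most 1.54 in root 2. In root 2, IQD22 was between 0.725 and 1.54 in the other sections of the choice, with the lowest value in section 3, where the array median was 0.790.

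**Figure D2:**
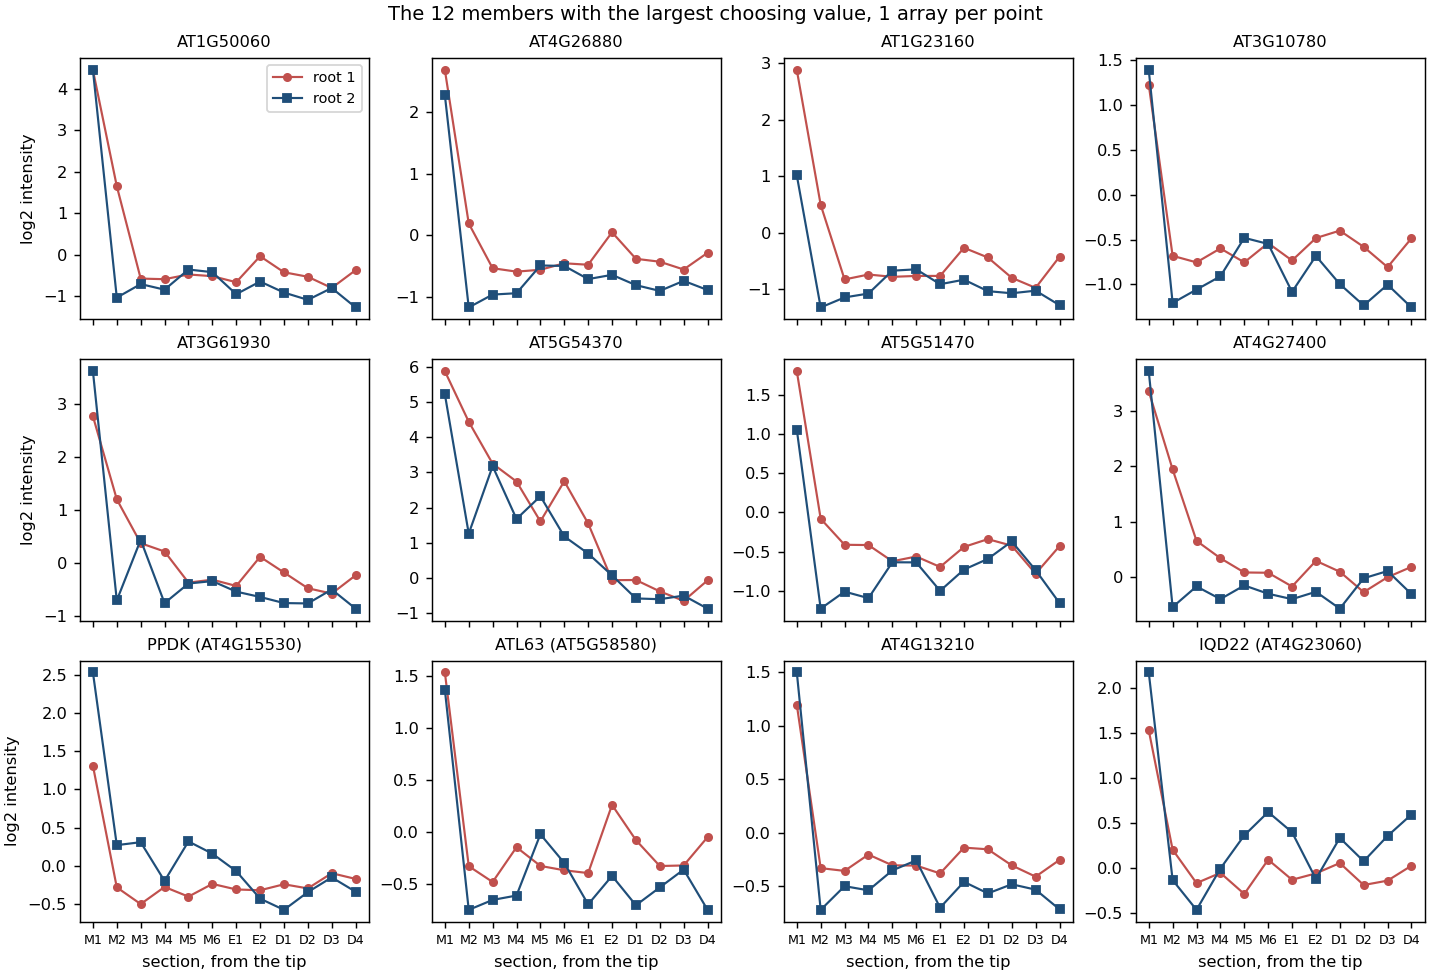
Log2 intensity (vertical axis) in each section from the tip (horizontal axis) for the 12 members with the largest choosing value, root 1 as circles and root 2 as squares, 1 array per point and no error bars because each point is a single array. AT5G54370 declines over several sections. In the sections of the choice, AT3G10780, PPDK, ATL63 and AT4G13210 drop after section 1 to an intensity of at most 1.25.

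At the other end of the list the excess was small. The last 2 members were AT5G49120, with 0.25 on the log2 scale in root 1 and 0.18 in root 2, and AT5G45880, with 1.15 and 0.18. The first 2 probe sets outside were AT1G76660, with 0.25 and 0.18, and AT1G64300, with 0.41 and 0.18. AT5G49120 had intensities of 0.946 and 0.845 in section 1, about the array median. Of the 100 members, section 1 lay above the median of its array for 99 in root 1 and 100 in root 2, and above the 90th percentile for 60 and 32. The difference between neighbours at the edge of the list is smaller than the difference between the roots.

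Of the 100 members, 15 carry a gene symbol in the reference, and these were looked at after their values were seen. They include regulators. BBM, an AP2-type transcription factor of the root stem cell niche, read 1.26 in section 1 of root 1 against at most 1.11, and 1.54 in root 2 against at most 0.790. AGL21, a MADS-box transcription factor, read 1.74 against at most 1.33 in root 1, and 2.46 against at most 1.55 in root 2. EEL, a bZIP transcription factor, read 1.13 against at most 0.871, and 2.00 against at most 1.25. All 3 exceeded their other sections by less than 2-fold in both roots.

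Auxin-related members were GH3.17, which conjugates auxin to amino acids, and IAA33, of the Aux/IAA family of auxin response proteins. GH3.17 read 2.39 in section 1 of root 1 against at most 1.26, and 2.79 in root 2 against at most 1.06. IAA33 read 1.59 against at most 1.24, and 2.67 against at most 1.18, with section 2 the highest of the other sections in both roots. The next section of IAA33 was already at 0.768 in root 1 and 0.579 in root 2, so its signal covered sections 1 and 2.

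Among enzymes and wall proteins, GH9B6, of glycosyl hydrolase family 9, read 5.67 against at most 1.23 in root 1 and 1.68 against at most 1.00 in root 2. CYP51G2, of the sterol demethylase family of cytochromes P450, read 2.37 against at most 1.33, and 2.204 against at most 1.11. PWD, phosphoglucan, water dikinase of starch breakdown, read 1.56 against at most 1.27, and 1.86 against at most 1.201. CXE20, a carboxylesterase, read 2.07 against at most 1.34, and 2.14 against at most 1.48. Only GH9B6 in root 1 reached 2-fold among these 4. KICP-02, of the kinesin family of microtubule motors, read 1.90 against at most 0.894 in root 1, and 2.75 against at most 1.27 in root 2. ARL, an ARGOS-like regulator of organ growth, had high values at both ends: its section 1 read 2.18 in root 1 and 8.79 in root 2, and its maturation section 2 read 1.85 in root 1 and 6.41 in root 2. It is a tip peak only by a small margin, 0.23 and 0.46 on the log2 scale.

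The value in 1 root was set against the other root, which the choice in 1 root does not use. Of the 100 probe sets with the largest excess in root 1 alone, 72 had section 1 as the highest section in root 2, against 6% of all single-gene probe sets, and their median excess in root 2 was 0.34 on the log2 scale against -0.54 over all. In 30 of them the excess in root 2 was at least 2-fold, against 0.429% of all. Of the 100 chosen in root 2 alone, 70 had section 1 highest in root 1, against 16.5% of all, with a median of 0.22 against -0.19. In 24 of these the excess was at least 2-fold, against 0.252%. The first list shares 58 genes with the 100 members and the second 53, which is the overlap the choice itself sets.

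**Figure D3:**
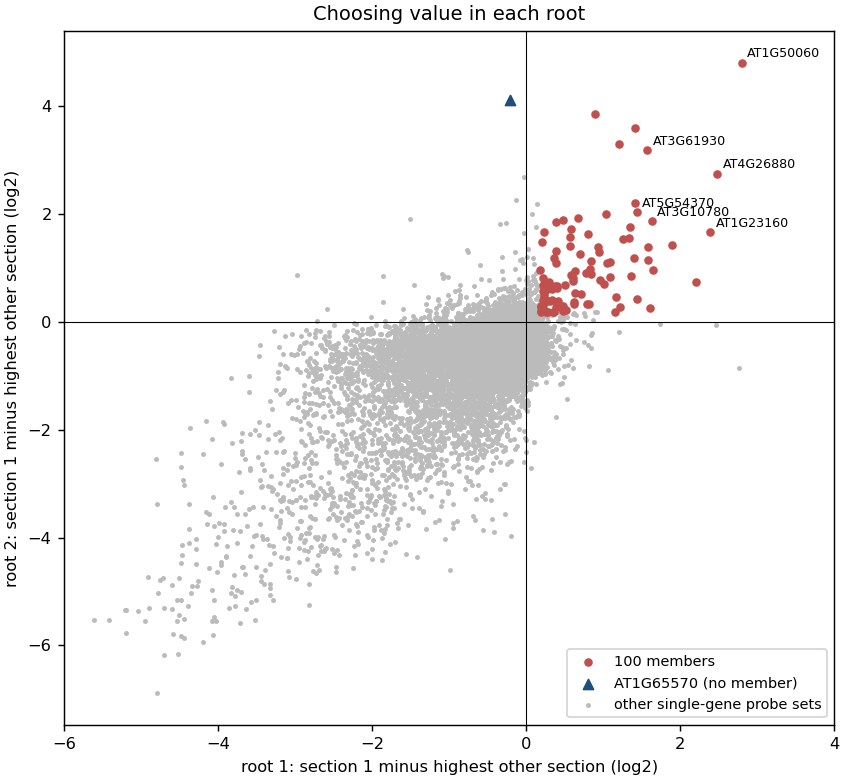
Excess of section 1 over the highest other section on the log2 scale in root 1 (horizontal) and root 2 (vertical), with the 100 members in red, AT1G65570 as a triangle and the other single-gene probe sets in grey. Members fill the upper right corner by selection, and AT1G65570 has 4.12 in root 2 and -0.21 in root 1.

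Some strong tip genes were seen in 1 root only. Of 58 single-gene probe sets with an excess of at least 2-fold in root 2, section 1 was not the highest section in root 1 for 15. Of 34 with such an excess in root 1, section 1 was not the highest in root 2 for 5. AT1G65570, a listed root cap polygalacturonase, read 13.9 in section 1 of root 2 against at most 0.797 in the other sections. In root 1 it read 0.846 in section 1 against at most 0.978, and 0.992 in the columella section. It ranked second of all single-gene probe sets in root 2 alone, and it is no member. LZY4, the other measured gene of the root cap list, read 1.05 in section 1 of root 1 against at most 0.791, and 0.590 in root 2 against at most 0.711. The medians of these 2 section 1 arrays were 0.937 and 0.821. LZY4 was thus near or below them, and no direction is read from it. Whether root cap tissue lies in section 1 of root 2 and not of root 1 was not tested.

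The signal next to the tip was compared between the roots in section 2. Section 2 was the highest of the other sections for 51 members in root 1, against 18.1% of all single-gene probe sets, and for 29 in root 2, against 21.7%. The highest other section stood at the same position in both roots for 31 members. Values of section 2 and of sections 3 to 6 enter the choice when they are highest. The difference between them is not the choosing value, but the choice can shift it, so it is given as a description. Section 2 minus the mean of sections 3 to 6 had a median of 0.24 on the log2 scale over the members in root 1 (-0.03 over all) and of -0.09 in root 2 (-0.24 over all). It was larger in root 1 than in root 2 for 64 members, against 60.8% of all single-gene probe sets, a share near the background. That count gives the direction only. The difference was above 0 for 77 members in root 1, against 42.4% of all, and for 46 in root 2, against 38.7%.

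Section 2 exceeded sections 3 to 6 by at least 2-fold for 11 members in root 1, against 3.20% of all, for 12 in root 2, against 11.1% of all, and for 3 in both, against 2.92%. After quantile normalization of the section arrays the counts were 11 in root 1 and 3 in root 2, with no share over all probe sets beside them. AT3G19430 showed the greatest contrast between the roots. It read 27.8 in section 1 of root 1 and 14.9 in section 2, against a mean of 1.32 in sections 3 to 6. In root 2 it read 32.9 in section 1 and 0.512 in section 2, against a mean of 0.925. Its section 1 levels were close and its section 2 levels were not.

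The other members of this kind were noticed after their values were seen. Section 2 read 11.7 in root 1 and 1.35 in root 2 for AT5G60530, and 3.15 and 0.489 for AT1G50060. For AT5G54370 it read 21.7 and 2.39, and for AT4G27400 3.84 and 0.686. For these 5 genes section 2 minus sections 3 to 6 was 1.65 to 3.50 on the log2 scale in root 1 and -0.85 to 0.06 in root 2. AT1G23160 had 1.27 and -0.44, and AT3G61930 had 1.23 and -0.44, on the same scale. A course low in section 2 of root 2 and back in section 3, was seen in AT5G54370 (2.39, then 9.03), AT5G60530 (1.35, then 5.08) and AT3G19430 (0.512, then 2.27).

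**Figure D4:**
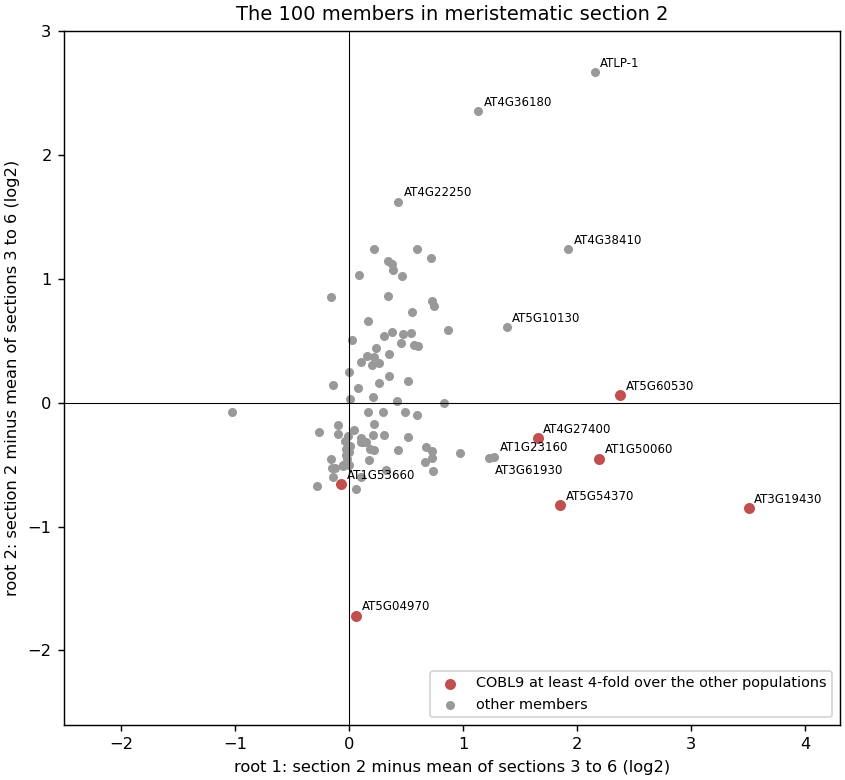
Section 2 minus the mean of sections 3 to 6 on the log2 scale in root 1 (horizontal) and root 2 (vertical) for the 100 members, with those at least 4-fold higher in COBL9 than in the median of the other sorted populations in red. Of the 7 red points, 5 lie at 1.65 or more in root 1 and at 0.06 or less in root 2, and ATLP-1 lies at 2.15 and 2.67.

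The members were then tested in contrasts that hold no section 1 value, with a limma fit across all 22746 probe sets in which zones were averaged within each root and root was a block. Section 1 was 1 of the 5 zones of this fit, so the section 1 values that chose the members entered its residual variance. The fit was therefore repeated with section 1 of both roots left out, an alternative added after seeing the data. The other sections entered the choice when they were highest. In both roots this was section 2 for ATLP-1 and maturation section 4 for AT2G36950. Neither fit is thus independent of the choice of members. Over the meristem, meristematic section 2 differed from sections 3 to 6 for 56 probe sets, or 0.246% of those tested (17 higher and 39 lower, adjusted p under 0.05). One member was among them. ATLP-1, a thaumatin-like protein, read 5.98 in section 2 of root 1 and 5.54 in section 2 of root 2. In sections 3 to 6 it read 2.54, 1.49, 0.982 and 0.882 in root 1 and 1.10, 0.809, 0.778 and 0.830 in root 2, so the groups did not overlap. The log2 difference was 2.41 ± 0.19 (SE, n = 2 roots), with a limma adjusted p of 0.0257, and without the root block the adjusted p was 0.0522. The call was also lost after quantile normalization (0.0662), without section 2 of root 1 (0.147) or root 2 (0.139), and without section 5 (0.0787) or section 6 (0.0661) of root 1. At an unadjusted p under 0.05 the fit held 17 members, against 17.9% of all probe sets, which is near the background. With section 1 left out of the fit, 1823 probe sets were called, or 8.01%, and 8 members, all higher in section 2, a share equal to the background. ATLP-1 was among these 8 (limma adjusted p = 0.00490). Leaving out section 1 of 1 root alone is the same fit for these contrasts, because the section 1 value that remains is fitted exactly.

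ATLP-1 was thus highest in sections 1 and 2 of both roots, with 2.54 still read in section 3 of root 1. Its section 1 read 10.7 in root 1 and 10.3 in root 2. In the sorted populations ATLP-1 read 5.55 in RM1000, 4.88 in S32, 2.95 in J2501 and 2.69 in S4, and 0.601 to 1.47 in the others. AT4G36180 had a similar course with a longer tail, mostly in root 2. It read 12.1 and 10.99 in section 1, 3.97 and 9.17 in section 2, and 2.70 and 4.73 in section 3 of roots 1 and 2. Its difference of section 2 from sections 3 to 6 did not pass the test (1.74 on the log2 scale, limma adjusted p = 0.0830), and passed it with section 1 left out of the fit (0.0309). AT4G38410 read 7.18 and 16.9 in section 1 and 3.12 and 1.71 in section 2, with at most 0.897 in sections 3 to 6 of either root (1.58 on the log2 scale, limma adjusted p = 0.119, and 0.0120 with section 1 left out). These 3 are the members with section 2 at least 2-fold over sections 3 to 6 in both roots.

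The maturation zone differed from meristematic sections 3 to 6 for 838 probe sets, 3.68% of those tested (642 higher and 196 lower), and 1 member was called. AT5G10130 read 0.764 to 0.888 in the maturation sections of root 1 and 0.546 to 0.778 in those of root 2. In sections 3 to 6 it read 8.998, 7.30, 6.62 and 1.38 in root 1 and 12.4, 10.02, 0.945 and 0.979 in root 2. The groups did not overlap, but their closest values were both near the array medians, 0.888 in maturation of root 1 and 0.945 in section 5 of root 2. The log2 difference was -2.45 ± 0.39 (SE, n = 2 roots, limma adjusted p = 0.0212). Its last section with an intensity above 2 was section 4 in root 2 and section 5 in root 1. The call was lost without section 3 of root 2 (limma adjusted p = 0.0544) and with log2 of value + 1 (0.101). With section 1 left out of the fit, 1543 probe sets (6.78%) and 3 members were called. Those were AT5G10130 (limma adjusted p = 0.00556), AT5G54370 with -2.80 on the log2 scale (0.0421) and, in the other direction, AT2G36950 with 1.14 (0.04999).

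Elongation section 1 differed from sections 3 to 6 for 317 probe sets, 1.39% of those tested (295 higher and 22 lower), and the only member called was again AT5G10130. It read 0.839 in root 1 and 0.750 in root 2, a log2 difference of -2.34 ± 0.39 (SE, n = 2 roots) with a limma adjusted p of 0.0393, which did not hold without the root block (0.0702). It was also lost without elongation section 1 of root 1 (0.0809) or root 2 (0.0950), without section 3 (0.119) or section 4 (0.0746) of root 2, and quantile normalization gave 0.0762. The remaining losses were with elongation section 2 added to the fit (0.0997) and with log2 of value + 1 (0.169). With section 1 left out of the fit, 579 probe sets (2.55%) were called and AT5G10130 was the only member (0.0103). In the maturation contrast 77 of 100 members had a negative difference, against 61.5% of all probe sets, and in the elongation contrast 86 of 100, against 65.5%. The member medians were -0.12 and -0.15 on the log2 scale, against -0.06 and -0.08 over all probe sets. At an unadjusted p under 0.05 these contrasts held 9 and 7 members, against 15.7% and 11.04% of all. Both zones entered the choice, which removes probe sets that are high there. Elongation section 1 was the highest other section for 0 members in root 1, against 7.52% of all single-gene probe sets. In root 2 it was so for 1, against 5.34%. The shares of negative differences thus describe the members and do not test them.

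Elongation section 2, which the choice left out, gives a further reading of each root. Section 1 was above it for 97 members in root 1, against 38.2% of all single-gene probe sets, and for 100 in root 2, against 39.6%. The median difference was 0.99 on the log2 scale in root 1 and 1.57 in root 2. The 3 exceptions in root 1 were AT4G00750, AT3G01750 and AT1G58220. Section 1 was chosen to be high, so these counts describe the members and do not test them.

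In the columella section of root 1 the members did not stand out as a group. The median member stood at percentile 39.8 of that array, against 48.0 for all single-gene probe sets. Of the members, 10 lay above its 90th percentile, against 8.92% of all, and 2 had an intensity of 1.5 or more. AT5G54370 read 4.08 there, against 58.6 in section 1 of root 1, and AT2G41710 read 1.54 against 1.62. The next were AT4G17940, with 1.28 against 4.60, and AT5G60530, with 1.25 against 24.1. By rank these genes were high in both arrays. AT5G54370, AT4G17940 and AT5G60530 stood at percentiles 99.97, 98.0 and 97.7 of the columella array. In section 1 of root 1 they stood at 99.996, 97.96 and 99.92. With an SD of 0.137 for the whole array, low columella values are limited by the narrow range of that array.

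In the sorted cells, 14 members reached at least 4-fold over the median of the other 7 populations in at least 1 population, against 8.35% of all single-gene probe sets. With 1 array for each population these are levels without a test. COBL9 held 7 members (2.75% of all probe sets), S32 held 3 (2.63%), SUC2 held 3 (1.03%), S4 held 1 (1.27%) and RM1000 held 1 (0.821%). None was found in S17 (1.32%), JO121 (0.0888%) or J2501 (0.141%). In 53 members no population reached an intensity of 1.5, against 53.2% of all, the same share as the background. The 15 pairs of member and population at 4-fold or more became 6 after quantile normalization of the sorted arrays, with no share over all probe sets beside them.

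The COBL9 members overlapped with those that extended into section 2 of root 1. The 7 were AT5G60530, AT5G04970, AT5G54370, AT3G19430, AT1G50060, AT1G53660 and AT4G27400. Of the 7, 5 (71.4%) were among the 11 members with section 2 at least 2-fold over sections 3 to 6 in root 1, or 45.5% of those 11. Of all single-gene probe sets, 3.20% had this step in root 1 and 2.75% reached 4-fold in COBL9. How many had both was not counted, so the overlap is a description without a background. None of the 7 reached this in root 2. AT5G60530 read 12.0 in COBL9, against a median of 1.41 in the other populations, and AT3G19430 read 7.80 against 1.25.

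AT5G54370 was not limited to COBL9. It read 18.5 in COBL9, 13.2 in SUC2, 8.77 in S32, 6.55 in J2501 and 2.66 in JO121, and 0.564 to 1.31 in S4, S17 and RM1000. AT1G50060 followed a similar order, with 6.31 in COBL9, 3.86 in SUC2 and 2.85 in S32. AT5G04970 read 5.23 in COBL9, against a median of 0.721, but its section 2 was not above sections 3 to 6 in either root by more than 0.06 on the log2 scale.

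The hair cell markers do not share this tip signal. Of 5 listed markers 2 were measured as single-gene probe sets, and their summed intensity in section 1 was 1.77 in root 1 and 1.29 in root 2. EXPA7, an expansin of growing hairs, read 16.9 in COBL9, and 0.837 and 0.661 in section 1 of roots 1 and 2. EXPA18 read 7.05 in COBL9, and 0.934 and 0.632 in section 1. The root cap gene AT1G65570 read 2.47 in COBL9, 1.85 in S32 and 0.417 to 1.51 in the other populations. Whether root cap cells were among the cells sorted with COBL9 was not tested.

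**Figure D5:**
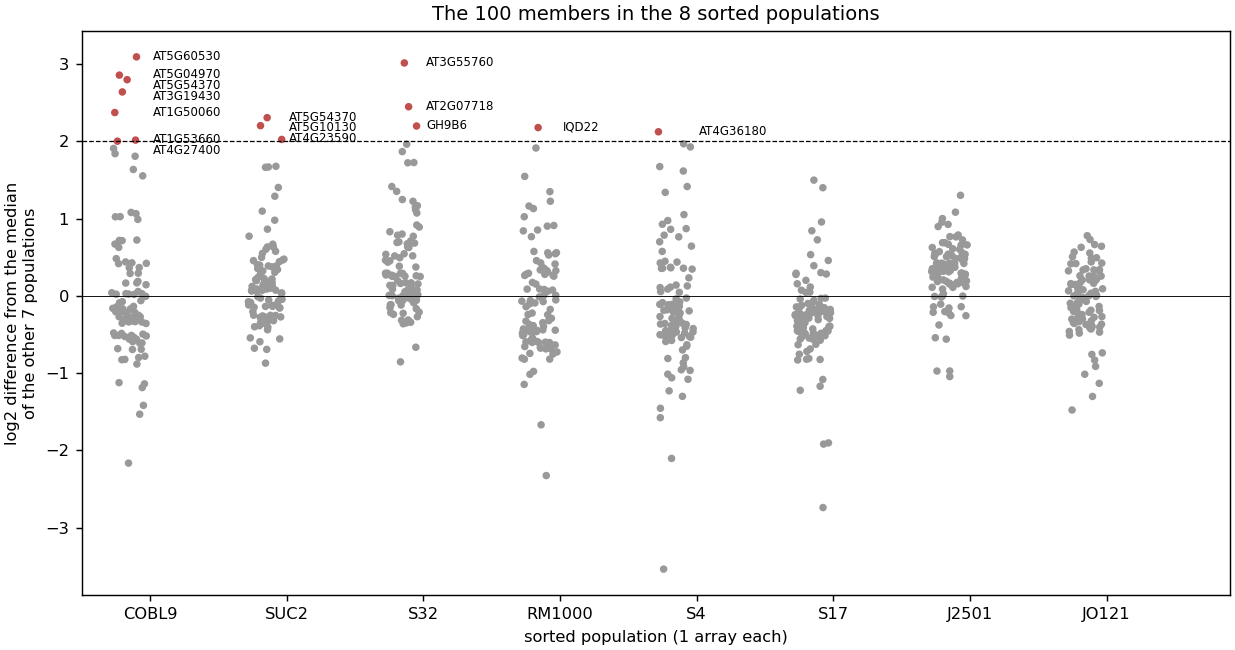
Log2 difference of each sorted population (horizontal axis, 1 array each) from the median of the other 7 for the 100 members, with points at 2 or more, a 4-fold excess, in red and named. COBL9 has 7 red points and S17, J2501 and JO121 have none.

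Other populations carried single members. AT3G55760 read 6.87 in S32, against at most 1.03 in the other populations, which is above its section 1 levels of 2.46 and 5.35. GH9B6 read 2.43 in S32 against at most 0.841, and AT2G07718 read 3.36 against at most 0.825. AT4G36180, with its long tail through the meristem, read 8.34 in S4, the meristematic xylem line, against at most 4.297. AT5G10130 read 5.17 in SUC2 against at most 2.37, AT4G23590 read 2.41 in SUC2 against at most 0.835, and IQD22 read 3.93 in RM1000 against at most 1.19. In 10 members some sorted population read above section 1 of both roots, against 54.9% of all single-gene probe sets. Section 1 was chosen to be high, and the sorted arrays differ in spread from section 1 of root 1, so nothing further is read from this count.

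Of 103 genes on the marker and pathway lists, 19 were measured as single-gene probe sets and 1, BBM, was a member. The list of the quiescent centre and stem cell niche had 5 of 14 genes measured, summing to 5.00 in section 1 of root 1 and 5.17 of root 2. AGL42, JKD, ACR4 and CLE40 read 0.498 to 1.42 in section 1, and none of the 4 was highest there in both roots. The root cap list had 2 of 14 measured, summing to 1.90 in root 1 and 14.5 in root 2, of which AT1G65570 made up 0.846 and 13.9. Cell death genes had 4 of 8 measured and summed to 4.79 and 15.02. SCPL48 made up 2.33 and 9.14 of this and was higher in the maturation zone, at up to 8.45 in root 1 and 15.2 in root 2. PASPA3 read 0.902 and 3.79 in section 1, with up to 2.04 and 3.39 in other sections. EXI1 read 0.785 and 1.26 and DMP4 0.776 and 0.829, both below their maturation section 2. The starch genes had 3 of 15 measured and summed to 2.94 and 4.39. The 2 measured wound and touch genes, STZ and WRKY53, read 0.540 to 1.23 in section 1, and OPS, of the stele list, read 0.753 and 0.569. No gene of the myrosinase and indole, cuticle and suberin, or endodermis and cortex lists was measured as a single-gene probe set. In the fit, 4 listed genes were higher in the maturation zone and 2 in elongation section 1 than in sections 3 to 6, and none differed in section 2.

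On the chromosomes the members were spread much as the array is. Chromosomes 1 to 5 held 24, 12, 17, 20 and 26 members, against 25.5%, 16.3%, 20.3%, 14.5% and 22.3% of all single-gene probe sets. No 2 of the 98 placed members were next to each other. Within 9 intervening genes there were 2 pairs, AT1G23160 with GH9B6 (6 genes between) and AT3G01690 with AT3G01750 (5 genes between).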

How the data were processed

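RNA from single root sections and sorted cells was hybridised to Arabidopsis arrays of 22746 probe sets. The deposited intensity values are linear, above 0, with array medians near 1; per the file headers neither background correction, summarisation nor normalization is stated. They were taken to log2 with no offset. The annotation names 1 gene for 13513 probe sets, several for 503 and none for 8730; 13436 of the first matched the reference (TAIR10.1). Zones were compared with limma 3.58.1 in R 4.3.3 on 10 zone means from 22 arrays, with root as a block (4 residual degrees of freedom) and Benjamini-Hochberg adjustment over all probe sets; the script was tested on simulated data. Root is a block because the labels put each root's sections in 1 plant. Root differences at 2 positions correlated at a median of 0.40 (-0.23 to 0.83, 55 pairs). Precision is limited by 2 roots and by 1 array per section or population; whether deposited sorted values average several arrays is not given in the sources used here.

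Named genes are the 12 with the largest choosing value, 2 on each side of the limit, list members, called members, up to 3 per sorted population at 4-fold or more and the 4 highest in the columella; others were named after their values were seen. Members and lists were chosen with earlier results of these data known. Promoter motifs and groups by annotated product were not analysed here.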

Additional observations from a re-analysis of the deposited data

How the results depend on the processing

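Each alternative changed 1 choice. Of the 100 members, 65 were chosen again after quantile normalization, 54 when the mean of the other sections replaced their maximum, 53 when all probe sets were allowed, and 53 to 58 when 1 root was used alone. For the maturation contrast the main fit called 1 member and 838 probe sets in all. With all single sections in the fit, 15 members were called (4 higher, 11 lower), with 5073 in all (22.3%). Quantile normalization gave 4 members (2184 in all, 9.6%). Log2 of value + 1 gave 0 (435 in all, 1.91%) and a trended prior gave 2 (1291 in all, 5.68%). For section 2 (1 member, 56 in all), 14 were called with all single sections (2271 in all, 9.98%) and 3 with a trended prior (902 in all, 3.97%). In the fit with no replicate block 0 were called for section 2 (4 in all) and 0 for elongation section 1 (129 in all), and the block changed no other call of members. For elongation section 1 (1 member, 317 in all), 2 were called with all single sections (694 in all, 3.05%). With elongation section 2 added 0 members were called (38 in all, 0.167%). Quantile normalization (678 in all, 2.98%) and log2 of value + 1 (141 in all, 0.62%) also gave 0. Leaving out 1 section array at a time gave 0 to 3 members in the maturation contrast (401 to 1543 in all), 0 to 8 for section 2 (0 to 1823) and 0 to 2 for elongation section 1 (125 to 579). The highest counts over all probe sets (1543, 1823 and 579) came without section 1 of either root. Leaving section 1 of both roots out of the fit, added after seeing the data, gave 3 members for the maturation zone, 8 for section 2 and 1 for elongation section 1. For these contrasts it is the same fit as without section 1 of 1 root. The fit to all single sections counts each section as a sample and so has more residual degrees of freedom.

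ATLP-1 stayed past the threshold in 24 of 30 settings (adjusted p 0.000174 to 0.147), AT5G10130 in 28 of 30 for the maturation zone (6.77e-05 to 0.101) and in 22 of 30 for elongation section 1 (0.0103 to 0.169), always in the same direction. The 30 settings are not all different fits. Leaving out section 1 of root 1, of root 2 or of both is the same fit. Leaving out section 2 of either root is also the same fit in the contrasts that do not use section 2. The same holds for elongation section 1, so these tallies count some fits more than once. Quantile normalization left 6 pairs of member and sorted population at 4-fold, in place of 15. Alternatives added after seeing the data left 3 members with section 2 at least 2-fold over sections 3 to 6 in root 2 after quantile normalization and 2 with log2 of value + 1, in place of 12. With quantile normalization 67 of the probe sets chosen in root 1 had section 1 highest in root 2, against 8.92% of all. Of those chosen in root 2, 82 had it highest in root 1, against 15.9%. The shares over all single-gene probe sets are not given for the 6 pairs or for the 3 and 2 members, so these have no background. The causes were not tested. Signal over background is not given in the files, so how far it limits the dim members was not tested.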
